A study of Mus musculus with 12 samples.

Results

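MHC class I antigen presentation genes were examined in pre-B cell lines with and without BCR-ABL1. The set holds 10 genes, H2-K1, H2-D1, B2m, Tap1, Tap2, Tapbp, Psmb8, Psmb9, Psmb10 and Nlrc5. They were picked by symbol from the 51826 genes of the count table, though with earlier results of these data known. All 10 passed the filter on low counts, as did 15038 genes in all. The samples were 12 lines grown from bone marrow-derived cells, labelled Pro-/pre B cells, of 2 C57BL/6 mice. Marrow was cultured with interleukin 7 (IL7) for 7 days and transduced with a pMIG retroviral vector, which carries GFP. The 6 EV lines received the empty vector, stayed in IL7 for a culture time similar to that of the transformed lines and were sorted for GFP. The 6 BCR-ABL1 lines received BCR-ABL1, a fusion kinase that arises from the Philadelphia chromosome, and IL7 was withdrawn for 1 week, starting 48 h after transduction. Sorting of the BCR-ABL1 lines is not described in the sources used here, and no genotype other than wild type is given for the mice. With the first digit of a line name read as the mouse, each mouse gave 3 EV lines (1A, 1B and 1C, or 2A, 2B and 2C) and 3 BCR-ABL1 lines of the same numbers. BCR-ABL1, the absence of IL7 and a possible difference in sorting cannot be told apart in this design.

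Class I molecules show peptides from proteins made inside a cell to CD8 T cells. Peptides are cut by the proteasome, whose catalytic subunits can be exchanged for the inducible subunits of the immunoproteasome, and are carried into the endoplasmic reticulum by the TAP transporter, where tapasin helps to load them onto a heavy chain bound to beta-2 microglobulin. NLRC5 is a transactivator that acts on class I genes through the X and Y boxes of their promoters, and interferon is a well-known inducer of the whole pathway.

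Counts on genes summed to 34791011 at the lowest and 64547911 at the highest among EV lines, and to 45230023 and 66011225 among BCR-ABL1 lines. Levels are given as CPM, counts scaled to a common library size by the TMM method, and as fold changes of BCR-ABL1 over EV lines on the log2 scale with the standard error (SE) taken from how log2 CPM varied between the lines. The 10 listed B-lineage markers, among them Cd79a and Pax5, were present in every line and summed to between 2538 and 4340 CPM in EV and between 2627 and 3244 CPM in BCR-ABL1 lines, lowest in EV line 2C. Of the 10, Cd22, an inhibitory receptor of B cells, was called lower, with 82.3 CPM in the lowest EV line, 81.3 CPM in the highest BCR-ABL1 line and a log2 fold change of -1.36 (SE 0.34, edgeR, adjusted p = 0.0345 against 1.5-fold). The 8 myeloid markers summed to at most 1.68 CPM and the 8 T and NK cell markers to at most 3.76 CPM in any line. The 7 dendritic cell markers summed to between 2.56 and 9.09 CPM in EV lines and between 8.08 and 14.1 CPM in BCR-ABL1 lines, of which Flt3, also a receptor of early progenitors, was at 4.61 CPM or above in each BCR-ABL1 line and at most at 0.703 CPM in any EV line. Mast cell and basophil markers (6) and stromal markers (6) each summed to at most 1.59 CPM, and 6 erythroid markers summed to at most 12.7 CPM, with Hba-a1 and Hba-a2 at 0 in every line. Hbb-bt made up most of that highest erythroid sum, with 12.4 CPM in BCR-ABL1 line 2A. By edgeR against 1.5-fold, Hbb-bt (log2 fold change 1.72, adjusted p = 0.0296) and Flt3 (3.61, adjusted p = 2.86e-05) were called higher. Cd3d (-2.67, adjusted p = 0.000511) and Zbtb46 (-1.91, adjusted p = 0.0139) were called lower, from at most 0.642 and 0.887 CPM in any EV line. The part of these traces in the values below was not tested, and in bulk RNA fewer cells of a type and less RNA per cell cannot be told apart.

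The genes lie on 3 chromosomes of the mouse genome (GENCODE M21, GRCm38), and reads were summed over whole genes. Most belong to the MHC on chromosome 17. These are Tapbp (ENSMUSG00000024308, chr17:33915899-33929292, plus strand), H2-K1 (ENSMUSG00000061232, chr17:33996017-34000347, minus strand), Psmb9 (ENSMUSG00000096727, chr17:34181987-34187764, minus strand), Tap1 (ENSMUSG00000037321, chr17:34187553-34197225, plus strand), Psmb8 (ENSMUSG00000024338, chr17:34197721-34201454, plus strand), Tap2 (ENSMUSG00000024339, chr17:34203527-34216321, plus strand) and H2-D1 (ENSMUSG00000073411, chr17:35262730-35267499, plus strand). B2m (ENSMUSG00000060802) lies at chr2:122147686-122153083 on the plus strand, and Psmb10 (ENSMUSG00000031897, chr8:105935735-105938444, minus strand) and Nlrc5 (ENSMUSG00000074151, chr8:94434356-94527272, plus strand) lie on chromosome 8. H2-K1, H2-D1 and the H2-Q genes are near-identical over long stretches, so that reads could be shared or lost between them in counting, and their values are uncertain for this reason. The annotated genes Psmb9 and Tap1 overlap at their starts on opposite strands, and whether the counting used the strand is not given in the sources used here.

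Promoter sequences are shown for the heavy chains, B2m and Psmb8, whose EV levels differed between the mice without overlap, and for the Y box between Tap1 and Psmb9. RefSeq windows on GRCm38.p6 matched 8 of the 10 genes, all but Tap2 and Nlrc5, and the 250 bases before each start were searched on both strands for 5 motifs. These were the X2 box TGACGC, the Y box GATTGG, an interferon element GAAANNGAA, a GAS element TTCNNNGAA and a kappa B site GGGGATTCC. No 2 matches overlapped in the windows shown. All are written 5′ to 3′ along the gene, in lower case with motif matches in capitals, and the stretch near Tap1 and Psmb9 follows Tap1. In the GENCODE annotation the windows of H2-D1 and Psmb8 and the stretch between Tap1 and Psmb9 lie inside the 5′ untranslated exons of longer transcripts (of Psmb9 for the last), so 30 bases around each match are shown for these, and the 250 bases for H2-K1 and B2m.
H2-K1, chr17:34000334-34000583, minus strand: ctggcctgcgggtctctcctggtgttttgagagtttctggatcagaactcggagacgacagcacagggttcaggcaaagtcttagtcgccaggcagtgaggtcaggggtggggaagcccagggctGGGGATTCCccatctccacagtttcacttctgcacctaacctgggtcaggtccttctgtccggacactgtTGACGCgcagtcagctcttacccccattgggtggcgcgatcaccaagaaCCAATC
H2-D1 kappa B site, chr17:35262913-35262942, plus strand: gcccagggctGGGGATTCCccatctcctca
H2-D1 X2 box, chr17:35262981-35263010, plus strand: ccgggacactgaTGACGCgctggcaggtct
H2-D1 Y box, chr17:35263029-35263058, plus strand: agattccaggagCCAATCagcgtcgccgcg
B2m, chr2:122147437-122147686, plus strand: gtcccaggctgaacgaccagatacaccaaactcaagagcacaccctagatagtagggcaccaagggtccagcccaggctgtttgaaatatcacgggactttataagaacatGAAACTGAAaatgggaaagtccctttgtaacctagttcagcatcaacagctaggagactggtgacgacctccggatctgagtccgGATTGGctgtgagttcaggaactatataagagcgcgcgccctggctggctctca
Psmb8 GAS element, chr17:34198088-34198117, plus strand: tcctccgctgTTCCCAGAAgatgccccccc
Y box between Tap1 and Psmb9, chr17:34187322-34187351, plus strand: gggctcggctttCCAATCagcggctgcgcg
H2-K1 and H2-D1, which encode the classical heavy chains, both carried the kappa B letters, the X2 box and the Y box in that order. From the start of the first to the start of the X2 box there were 70 bases in each, and from there to the Y box 49 bases in H2-K1 and 48 in H2-D1. H2-K1 has 2 listed starts 14 bases apart, and the Y box lies before the lower of them only, which is the window shown. The starts of Tap1 and Psmb9 lie 226 bases apart in opposite directions, with 225 bases between them and the single Y box 3 bases inside the end near Psmb9. B2m carried a Y box at -54 and an interferon element at -139 from its start, and Psmb8 a GAS element at -97. The windows of Tapbp and Psmb10 held none of the 5. Among all 32851 windows of this length, 6.12% held an X2 box, 14.6% a Y box, 7.13% an interferon element, 7.02% a GAS element and 0.213% the kappa B letters, against 2, 5, 1, 1 and 2 of the 8 genes. A match is a description of letters and not a mapped binding site. Each motif was searched in a single spelling, and other forms of these elements were not searched. The lack of an interferon match in H2-K1 and H2-D1 thus does not show that their windows hold no such element.

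No member passed the test for a change beyond 1.5-fold between the 6 EV and the 6 BCR-ABL1 lines. In edgeR's quasi-likelihood test against a 1.5-fold change (glmTreat, adjusted p under 0.05 over all genes), 0 of 10 were called, beside 12.5% of all genes tested (5.99% higher and 6.49% lower in BCR-ABL1 lines). By unadjusted p under 0.05 there was 1 such member, Psmb8, beside 3162 of the 15038 genes tested. The likelihood ratio fit and DESeq2 also called 0 of 10, beside 2028 and 1446 of the 15038 genes. The median log2 fold change of the 10 was -0.10, and that of all genes tested -0.02, with 4 of the 10 positive. Tested against no change by the quasi-likelihood F test, 3 of 10 differed, with Psmb8 higher and H2-K1 and H2-D1 lower, beside 48.5% of all genes (22.5% higher and 25.9% lower). With the mouse as replicate block the counts were again 0 of 10 against 1.5-fold, beside 14.7% of all genes (7.49% higher and 7.18% lower), and 3 of 10 against no change, beside 52.3% (25.1% higher and 27.2% lower). The lines of the groups did not overlap for 2 of 10, H2-K1 and Psmb8, beside 25.6% of all genes.

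**Figure D1:**
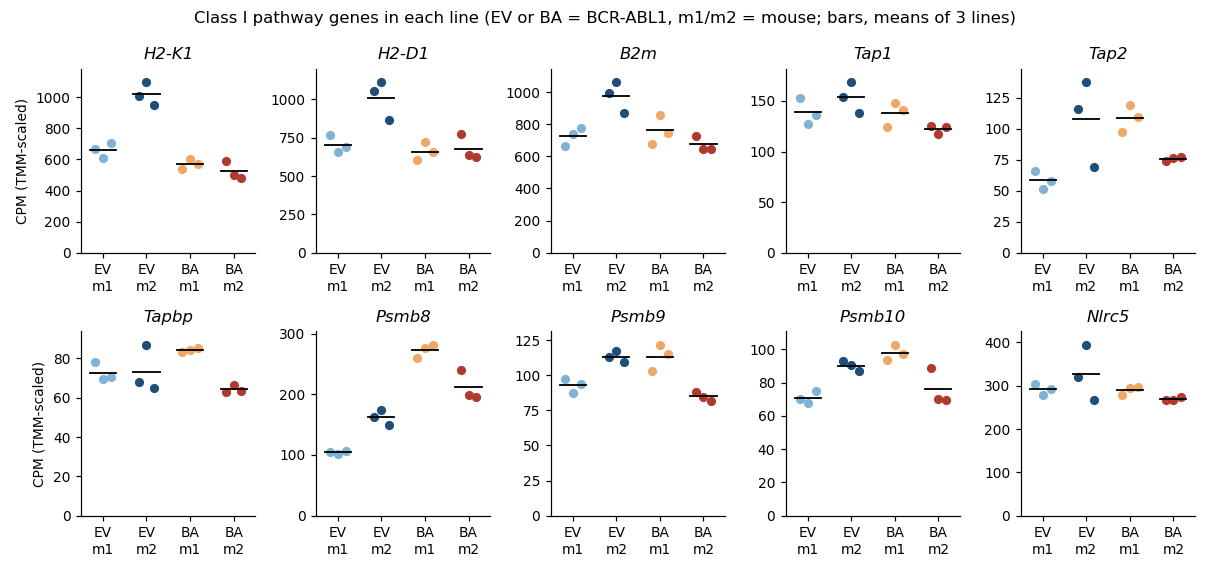
CPM of the 10 genes in each of the 12 lines, on linear axes that start at 0, with EV lines in blue and BCR-ABL1 (BA) lines in orange and red, split by mouse (m1, m2), and bars at the mean of 3 lines. EV lines of mouse 2 lie above those of mouse 1 without overlap for 7 genes, H2-K1, H2-D1, B2m, Tap2, Psmb8, Psmb9 and Psmb10.

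H2-K1 encodes the heavy chain of the classical class I molecule H-2K. It was measured at 610 CPM at the lowest, 830 at the median and 1097 at the highest in EV lines, and at 482, 553 and 605 CPM in BCR-ABL1 lines. Every BCR-ABL1 line was thus below every EV line. The log2 fold change was -0.62 (SE 0.15, n = 6 and 6, adjusted p = 0.616 against 1.5-fold and 0.00478 against no change by edgeR). H2-D1, the heavy chain of H-2D, had a lowest level of 657, a median of 816 and a highest level of 1111 CPM in EV lines and of 601, 646 and 774 CPM in BCR-ABL1 lines. Its groups overlapped, with a log2 fold change of -0.36 (SE 0.14, adjusted p = 1 against 1.5-fold and 0.0445 against no change by edgeR).

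B2m encodes beta-2 microglobulin, the light chain that every class I heavy chain needs at the cell surface. Its levels were 664 CPM at the lowest, 824 at the median and 1061 at the highest in EV lines, and 647, 704 and 859 CPM in BCR-ABL1 lines. The groups overlapped, although EV lines 2A to 2C, at 871 CPM or above, were all higher than the BCR-ABL1 lines. The log2 fold change was -0.25 (SE 0.12) and did not pass against no change (edgeR, adjusted p = 0.109).

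The transporter subunits and tapasin differed in how much they varied, more than in their means. Tap1, the first TAP subunit, lay between 127 and 168 CPM (median 146) in EV lines and between 117 and 148 CPM (median 125) in BCR-ABL1 lines, with a log2 fold change of -0.17 (SE 0.08, adjusted p = 0.0955 against no change by edgeR). Tap2, its partner, had 66.1, 51.1 and 58.2 CPM in EV lines 1A to 1C, 116, 137 and 69.3 CPM in EV lines 2A to 2C, 97.0, 119 and 109 CPM in BCR-ABL1 lines 1A to 1C and 73.5, 76.6 and 77.5 CPM in BCR-ABL1 lines 2A to 2C. In mouse 1 its 3 BCR-ABL1 lines were all above the EV lines, whereas in mouse 2 they lay between EV line 2C and the other two. Over all lines the log2 fold change of Tap2 was 0.15 (SE 0.26, adjusted p = 0.636 against no change by edgeR). Tapbp, which encodes tapasin, lay between 64.7 and 86.7 CPM (median 70.1) in EV lines and between 63.0 and 85.2 CPM (median 74.8) in BCR-ABL1 lines. Its fold change on the log2 scale was 0.02 (SE 0.11), and the sign turned in 4 of the 12 fits that left out 1 line.

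The mean change between the groups was not alike for the inducible proteasome subunits. Across all lines, Pearson r was 0.83 between Psmb9 and Psmb10, 0.69 between Psmb8 and Psmb10 and 0.31 between Psmb8 and Psmb9. Psmb8, the inducible counterpart of Psmb5, had 105, 101 and 106 CPM in EV lines 1A to 1C and 163, 174 and 150 CPM in EV lines 2A to 2C. In BCR-ABL1 lines it had 260, 276 and 281 CPM (1A to 1C) and 240, 199 and 196 CPM (2A to 2C). All BCR-ABL1 lines were above all EV lines, and those of mouse 2 came closest to the EV lines of the same mouse. The ratio of the means was 1.82 and the log2 fold change 0.86 (SE 0.17, adjusted p = 0.100 against 1.5-fold and 0.0012 against no change by edgeR). Leaving out EV line 2B, the EV line with the highest level, brought the log2 fold change to 0.94 and the adjusted p against 1.5-fold to 0.0434, and the other 11 lines left out in turn gave no call.

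Psmb9, the inducible counterpart of Psmb6, had a lowest level of 87.6, a median of 103 and a highest level of 117 CPM in EV lines and of 81.9, 95.4 and 122 CPM in BCR-ABL1 lines. Psmb10, the inducible counterpart of Psmb7, had 67.5, 81.2 and 93.0 CPM in EV and 69.7, 91.4 and 103 CPM in BCR-ABL1 lines. For both genes the BCR-ABL1 lines spanned nearly the whole EV range and more. The log2 fold changes were -0.06 (SE 0.12) for Psmb9 and 0.11 (SE 0.13) for Psmb10, with adjusted p of 0.702 and 0.464 against no change by edgeR.

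Nlrc5, the transactivator of the class I genes, was measured at 268 CPM at the lowest, 299 at the median and 394 at the highest in EV lines and at 267, 276 and 298 CPM in BCR-ABL1 lines. Its BCR-ABL1 lines were the most alike of any member, with a standard deviation of log2 CPM of 0.07 against 0.20 in EV lines. The log2 fold change was -0.14 (SE 0.09, adjusted p = 0.189 against no change by edgeR). Across the 6 EV lines, log2 CPM of Nlrc5 had a Pearson r between 0.49 (Psmb10) and 0.88 (Tap1) with the other 9 members, and across the 6 BCR-ABL1 lines between 0.02 (H2-D1) and 0.95 (Tap2). These r describe 6 points each from 2 mice, and lines of a mouse share the marrow they came from.

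Between genes, levels can be compared only per length. Per kilobase of annotated exon, B2m was the most abundant in EV lines, at 990 CPM per kb ± 178 (SD, n = 6), followed by H2-D1 at 332 ± 73.6 and H2-K1 at 286 ± 69.5. The other 7 members lay between 20.1 (Tapbp) and 47.3 (Psmb10) CPM per kb. H2-D1 and H2-K1 did not differ beyond their spread in EV lines, and from Psmb10 down to Tapbp the ranges of 1 SD of neighbours met, by the least for Nlrc5 at 36.4 ± 5.33 and Psmb9 at 28.1 ± 3.23. In BCR-ABL1 lines the order began with B2m at 835 ± 93.1, H2-D1 at 259 ± 25.4 and H2-K1 at 186 ± 16.6 CPM per kb, and the ranges of 1 SD of the last 2 no longer met. Psmb8 stood 4th there, at 71.6 ± 11.1 CPM per kb, before Psmb10 at 51.1 ± 8.19 and Nlrc5 at 32.9 ± 1.61. Exon lengths count all annotated transcripts and can be longer than the RNA in the cells, so that the levels per kb are approximate.

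The change with BCR-ABL1 depended on the mouse for most members. In the test of the interaction of mouse and condition by edgeR's quasi-likelihood F test, 6 of 10 members passed, H2-K1, B2m, Tap2, Psmb8, Psmb9 and Psmb10, beside 16.9% of all genes tested. For all 10 the change was lower in mouse 2 than in mouse 1, and for the 6 that passed this compares with 10.8% of all genes that passed in that direction. The largest difference was that of Tap2, with an interaction of -1.39 on the log2 scale (adjusted p = 0.00642 by edgeR), followed by Psmb8 with -1.005 (adjusted p = 0.000426 by edgeR). The others that passed were H2-K1 with -0.75 (edgeR, adjusted p = 0.00522), Psmb10 with -0.70 (0.00509), Psmb9 with -0.70 (0.00147) and B2m with -0.60 (0.0277). H2-D1 (-0.48), Tapbp (-0.40), Tap1 (-0.32) and Nlrc5 (-0.28) did not pass, with adjusted p by edgeR between 0.0878 and 0.322. Without EV line 2C, all 10 members passed, beside 36.0% of all genes, with interactions between -1.63 (Tap2) and -0.38 (Tap1).

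Within mouse 1, the 1.5-fold test called 2 of 10 members, both higher in BCR-ABL1 lines, beside 28.5% of all genes (16.3% higher and 12.2% lower). Psmb8 had a log2 fold change of 1.40 there (SE 0.04, n = 3 and 3, edgeR, adjusted p = 1.15e-07) and Tap2 one of 0.90 (SE 0.14, n = 3 and 3, edgeR, adjusted p = 0.00424). The median of the 10 members was 0.15 in mouse 1, and that of all genes tested -0.01. Within mouse 2, the same test called 0 of 10, beside 6.64% of all genes (3.99% higher and 2.65% lower). By unadjusted p under 0.05 there was 1 member, beside 2526 of the 15038 genes. H2-K1 came closest, with a log2 fold change of -0.95 (SE 0.11, n = 3 and 3, edgeR, adjusted p = 0.0600), and the median of the 10 was -0.36 against -0.0030 for all genes. Psmb8 was the only member with a positive log2 fold change in mouse 2, at 0.40 (SE 0.11).

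**Figure D2:**
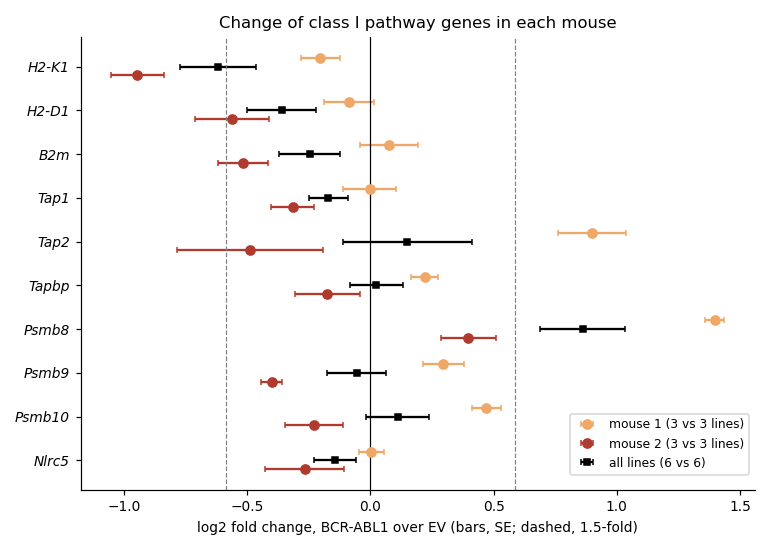
Log2 fold change of BCR-ABL1 over EV lines for each gene in mouse 1 (orange), in mouse 2 (red) and in all lines (black), with bars of 1 SE, a solid line at no change and dashed lines at 1.5-fold. For each gene the point of mouse 2 lies to the left of that of mouse 1, by most for Tap2 (0.90 in mouse 1 and -0.49 in mouse 2).

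The levels behind this difference lay on the EV side and, for some genes, on the BCR-ABL1 side as well. EV lines of mouse 2 were all above those of mouse 1 for 7 of 10 members, beside 16.6% of all genes tested, and in no member were they all below (16.2% of all genes). The ratio of the means of mouse 2 to mouse 1 in EV lines was 1.84 for Tap2, 1.56 for Psmb8, 1.54 for H2-K1, 1.43 for H2-D1 and 1.34 for B2m. It was 1.01 for Tapbp, 1.11 for Tap1 and 1.12 for Nlrc5, the 3 members with overlapping EV lines. BCR-ABL1 lines of mouse 2 were all below those of mouse 1 for 6 of 10, Tap2, Tapbp, Psmb8, Psmb9, Psmb10 and Nlrc5, beside 18.7% of all genes, and all above for 0 (19.8% of all genes). H2-K1 in EV lines had 666, 610 and 707 CPM in mouse 1 and 1010, 1097 and 952 CPM in mouse 2, whereas in BCR-ABL1 lines it had 537, 605 and 568 CPM in mouse 1 and 590, 503 and 482 CPM in mouse 2. The split by mouse of H2-K1 was thus seen in the EV lines, and its BCR-ABL1 lines overlapped between the mice.

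Other genes of these cells shared the split. Vpreb1 and Igll1, which encode the surrogate light chain of pre-B cells, were at 186 to 230 and 181 to 219 CPM in EV lines of mouse 1 and at 451 to 788 and 362 to 810 CPM in those of mouse 2, with interactions of -1.96 and -1.72 (edgeR, adjusted p = 0.000412 and 0.00577). Their part in the result was not tested. The spread of log2 CPM was larger in EV than in BCR-ABL1 lines for 7 of 10 members and for 80.7% of all genes tested, with a median standard deviation of 0.23 against 0.19 for the members and 0.33 against 0.17 for all genes.

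The standard catalytic subunits give the scale against which the inducible subunits can be read. Psmb5, Psmb6 and Psmb7, the subunits replaced by Psmb8, Psmb9 and Psmb10, had log2 fold changes of 0.31 (SE 0.11), 0.35 (SE 0.10) and 0.39 (SE 0.08), none called against 1.5-fold and all higher against no change (edgeR, adjusted p = 0.0278, 0.0130 and 0.00263). The ratio of Psmb8 to Psmb5 counts lay between 1.12 and 2.31 (median 1.28) in EV lines and between 1.87 and 2.55 (median 2.09) in BCR-ABL1 lines. EV line 2B, with 2.31, was the only EV line within the BCR-ABL1 range. The mean difference of the log2 ratio was 0.56 (SE 0.18, n = 6 and 6, two-sided exact permutation test, p = 0.0195, and 0.0292 adjusted over the 3 ratios).

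The ratios of the other pairs went the other way. The ratio of Psmb9 to Psmb6 lay between 0.595 and 0.848 (median 0.715) in EV lines and between 0.440 and 0.643 (median 0.524) in BCR-ABL1 lines, with a difference of the log2 ratio of -0.42 (SE 0.11, exact permutation test, p = 0.00649, adjusted 0.0195). The ratio of Psmb10 to Psmb7 lay between 0.513 and 0.777 (median 0.582) in EV lines and between 0.422 and 0.559 (median 0.505) in BCR-ABL1 lines, with a difference of -0.30 (SE 0.12, exact permutation test, p = 0.0368 before and after adjustment). In BCR-ABL1 lines Psmb8 was thus higher, and Psmb9 and Psmb10 lower, relative to their standard counterparts. With labels exchanged only within a mouse, the mouse being the replicate block, p was 0.0350, 0.0050 and 0.0300 in the order above (exact permutation test, smallest p possible 0.005).

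Within each mouse the size of these differences varied. The difference for Psmb8 to Psmb5 was 0.97 in mouse 1 and 0.15 in mouse 2, and that for Psmb10 to Psmb7 was -0.04 in mouse 1 and -0.56 in mouse 2. That for Psmb9 to Psmb6 was -0.29 and -0.56. The sign of each was the same in both mice, but the lines overlapped where the difference was small. In mouse 1 the ratio of Psmb10 to Psmb7 was 0.520 to 0.603 in EV and 0.534 to 0.559 in BCR-ABL1 lines. In mouse 2 that of Psmb8 to Psmb5 was 1.25 to 2.31 in EV and 1.87 to 2.00 in BCR-ABL1 lines. The difference for Psmb10 to Psmb7 no longer passed when any of EV lines 1C, 2A or 2B or BCR-ABL1 lines 2A, 2B or 2C was left out (exact permutation test, p up to 0.0736).

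**Figure D3:**
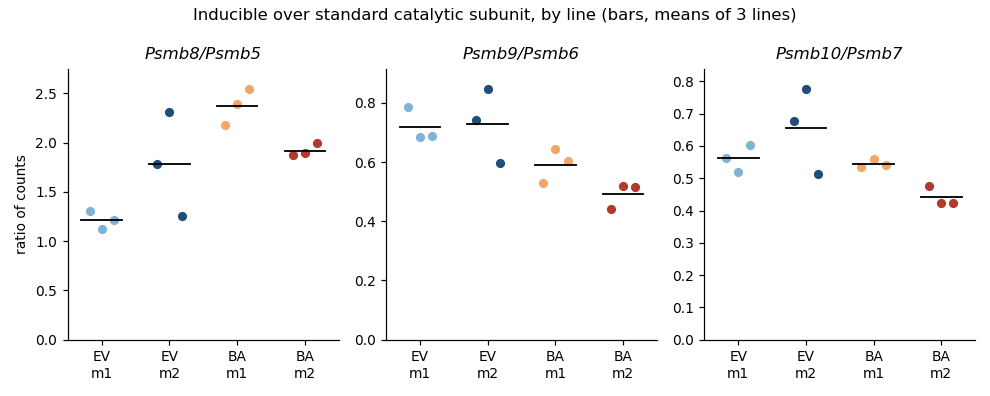
Ratio of counts of each inducible to its standard catalytic subunit in the 12 lines, on linear axes that start at 0, with bars at the mean of 3 lines (EV, BA = BCR-ABL1, m1 and m2 = mouse). BCR-ABL1 lines lie between 1.87 and 2.55 for Psmb8 over Psmb5, above all EV lines but 1, and between 0.440 and 0.643 for Psmb9 over Psmb6, where EV lines reach from 0.595 to 0.848.

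The rest of the pathway was described by 10 lists, in which 88 of 93 genes were found in the table and 74 were tested. Against 1.5-fold, 3 of the 74 were called higher and 3 lower, beside the 5.99% and 6.49% of all genes given above. For unadjusted p, the likelihood ratio fit and DESeq2, the counts over all genes are likewise those given above. Among the non-classical class I genes, which encode heavy chains with more limited roles, 17 were found, 9 were tested and H2-Q10 alone was called. H2-Q10 had 7.67 to 15.4 CPM in EV lines and, with BCR-ABL1, 4.27 to 5.75 CPM, without overlap, and a log2 fold change of -0.99 (SE 0.17, edgeR, adjusted p = 0.0455, and 0.0497 with the mouse as replicate block). The call was lost in 8 of the 12 fits without 1 line, with adjusted p up to 0.0879. Over all lines the 9 log2 fold changes were negative, with a median of -0.42, but that of H2-Q7 was positive with the mouse as replicate block. In mouse 1, 5 of the 9 were positive, H2-Q6, H2-Q7, H2-T22, H2-T23 and H2-T24, with a median of 0.06, and in mouse 2 the 9 were negative, with a median of -1.01.

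H2-Q7, which encodes a Qa-2 antigen, showed the split between mice most clearly among these. It had 23.7, 22.4 and 23.1 CPM in EV lines 1A to 1C and 87.8, 179 and 120 CPM in EV lines 2A to 2C. In BCR-ABL1 lines it had 63.6, 79.3 and 75.6 CPM in mouse 1 and 58.2, 55.5 and 57.5 CPM in mouse 2. BCR-ABL1 lines of both mice thus lay between the EV lines of mouse 1 and those of mouse 2. The log2 fold change was 1.67 in mouse 1 (edgeR, adjusted p = 4.87e-07) and -1.16 in mouse 2 (adjusted p = 0.108), with an interaction of -2.84 (adjusted p = 5.73e-05). Over all lines it was -0.23 (SE 0.57, adjusted p = 1 by edgeR), and 0.24 with the mouse as replicate block. H2-T23, which encodes the Qa-1 heavy chain, had 43.8 to 49.8 CPM in EV lines of mouse 1 and 94.5, 144 and 39.5 CPM in EV lines 2A, 2B and 2C. Its change was -0.32 (SE 0.31, edgeR, adjusted p = 1), and EV line 2C was on the other side of all EV lines of mouse 1 from 2A and 2B.

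**Figure D4:**
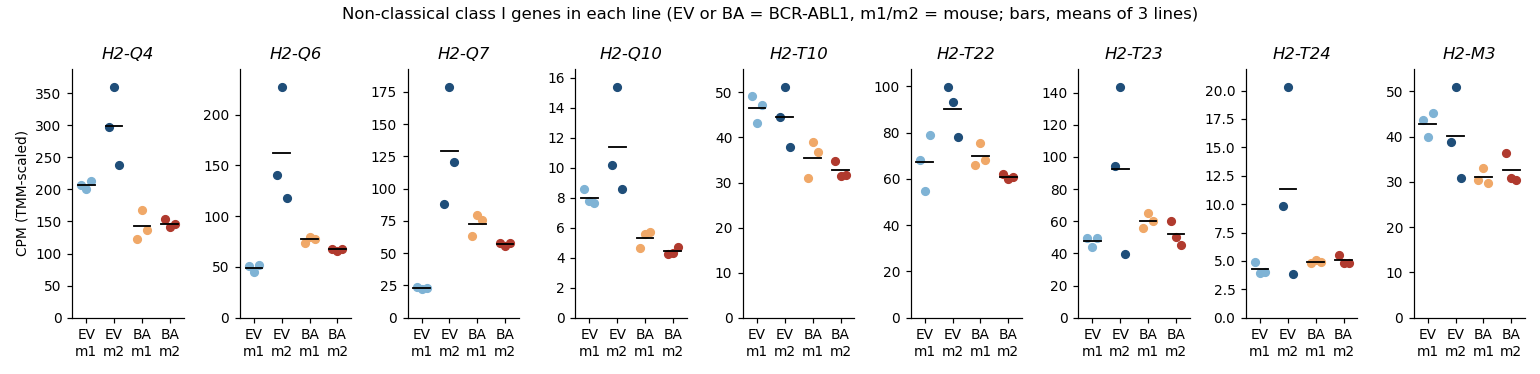
CPM of the 9 tested non-classical class I genes in each line, on linear axes that start at 0, with bars at the mean of 3 lines (EV, BA = BCR-ABL1, m1 and m2 = mouse). H2-Q7 lies at 22.4 to 23.7 CPM in EV lines of mouse 1, at 87.8 to 179 CPM in those of mouse 2 and between 55.5 and 79.3 CPM in BCR-ABL1 lines.

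Of the 7 class I-like genes outside the MHC that were found, 3 were tested and 0 called (edgeR, 2 at an unadjusted p under 0.05; the likelihood ratio fit called 1 and DESeq2 0). With the mouse as replicate block Hfe was called higher, with a log2 fold change of 1.88 (edgeR, adjusted p = 0.0176, against 0.0715 without the block). Hfe encodes a regulator of iron uptake and was named after its values were seen. Its highest EV line had 0.559 CPM and its lowest BCR-ABL1 line 0.585 CPM, so that the groups came close without overlap at a very low level. In mouse 1 alone 2 of the 3 were called higher, Cd1d1 and Hfe, and 1 lower, Mr1, beside the 16.3% and 12.2% of all genes given above. The remaining proteasome genes had small positive log2 fold changes. All 11 other core subunits were between 0.28 and 0.56, and 8 of 9 assembly factors and activators were positive, with 0 called in either list (0 at an unadjusted p under 0.05, and 0 by DESeq2). Against no change, 9 of the 11 and 7 of the 9 were higher, beside 22.5% of all genes. Lower were 0 of the 11 and 1 of the 9, beside 25.9%. Psme1 and Psme2 encode the PA28 activator. Psme1 had a log2 fold change of 0.32 (SE 0.13) and Psme2 one of 0.59 (SE 0.22), with adjusted p of 1 and 0.742 by edgeR. Psme2 had 182 CPM in EV line 2C and 73.6 to 97.8 CPM in the other EV lines, and without EV line 2C its log2 fold change was 0.83 (edgeR, adjusted p = 0.0462).

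Chaperones and enzymes of the endoplasmic reticulum that fold class I molecules or trim peptides had a median log2 fold change of 0.57 over 9 genes, with 0 called (edgeR, 1 at an unadjusted p under 0.05, and 0 by DESeq2) and 7 of 9 higher against no change, beside 22.5% of all genes. Erap1, the peptidase that trims peptides to the length class I binds, had 103 to 181 CPM in EV lines and, with BCR-ABL1, 191 to 217 CPM. All BCR-ABL1 lines were above all EV lines, with a log2 fold change of 0.57 (SE 0.11, adjusted p = 0.805 against 1.5-fold and 0.00138 against no change by edgeR). Of 6 cytosolic peptidases 0 were called (edgeR, 0 at an unadjusted p under 0.05, and 0 by DESeq2), with a median of 0.26.

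Among the factors that bind class I promoters, Rfx5 was called. Rfx5, a subunit of the RFX complex that binds the X box, had 36.9 to 65.1 CPM in EV lines and, with BCR-ABL1, 27.1 to 35.2 CPM, without overlap. The log2 fold change was -0.88 (SE 0.13, edgeR, adjusted p = 0.0351), and the call was lost in 9 of the 12 fits without 1 line, with adjusted p up to 0.109. It was the only call among the 8 genes of the RFX, NFY and CREB groups.

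Of 13 genes of interferon signalling, 2 were called higher and 1 lower. Ifngr2, a chain of the interferon-gamma receptor, had 25.5 to 35.2 CPM in EV lines and, with BCR-ABL1, 48.1 to 72.6 CPM, with a log2 fold change of 1.07 (SE 0.12, edgeR, adjusted p = 0.00199). Socs1, an inhibitor of cytokine signalling, had 4.62 to 23.3 CPM in EV lines and, with BCR-ABL1, 23.3 to 46.6 CPM, with a log2 fold change of 1.68 (SE 0.43, edgeR, adjusted p = 0.0361). Irf2, a transcription factor that binds interferon elements, had 31.2 to 58.1 CPM in EV lines and, with BCR-ABL1, 20.3 to 29.7 CPM, with a log2 fold change of -0.93 (SE 0.16, edgeR, adjusted p = 0.0362). The calls of Socs1 and Irf2 were lost in 7 of the 12 fits without 1 line, with adjusted p up to 0.0710 and 0.0790, and that of Ifngr2 in none. Irf1, an early target of interferon-gamma, had a log2 fold change of -0.39 (SE 0.13), not called against 1.5-fold (edgeR, adjusted p = 1). Its change also differed between the mice, with an interaction of -0.56 (edgeR, adjusted p = 0.0146). The EV lines of Irf1 overlapped between the mice, with 72.0 to 83.4 CPM in mouse 1 and 70.2 to 90.1 CPM in mouse 2. Its BCR-ABL1 lines did not, with 69.8 to 73.9 CPM in mouse 1 and 50.4 to 51.3 CPM in mouse 2.

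Of 3 tested ligands of the NK cell receptor NKG2D, Raet1e was called, at very low counts. It had 1, 0, 1, 14, 1 and 0 counts in EV lines 1A to 2C and 134, 51, 69, 19, 15 and 12 counts in BCR-ABL1 lines 1A to 2C, with a fitted log2 fold change of 3.91 (SE 0.79, edgeR, adjusted p = 0.0327). EV line 2A, with 14 counts, lay within the BCR-ABL1 range, and with the mouse as replicate block the adjusted p was 0.0503. Its call was lost in 7 of the 12 fits without 1 line, with adjusted p up to 0.0746. Because 5 EV lines were at 1 count or 0, the fitted fold depends on the prior count and is no measured ratio. In the annotation Raet1e (chr10:22158569-22374139, plus strand) spans H60b and Raet1d on the same strand. Reads could thus be shared or lost between these genes in counting.

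**Figure D5:**
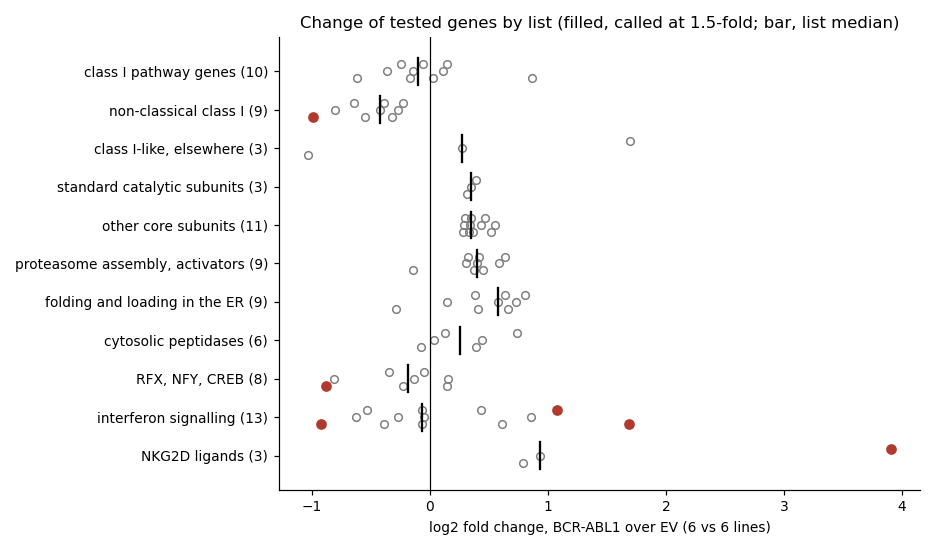
Log2 fold change of BCR-ABL1 over EV lines for the tested genes of each list (number in brackets), with filled points for genes called against 1.5-fold, open points for the others and a bar at the median of the list. The 10 class I pathway genes hold no filled point and have a median of -0.10, and the other core subunits of the proteasome all lie between 0.28 and 0.56.

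The genes outside all these lists with a pattern across the 12 lines most like that of Nlrc5 were Ccm2 (Pearson r = 0.96), Zfp831 (0.95), Arhgap45 (0.95), Cnp (0.95) and Plgrkt (0.95). Those most like the mean of the 10 members, each standardised, were Zfp418 (r = 0.95), Pyroxd1 (0.94), Trav14-1 (0.93), Sigirr (0.92) and Gramd1a (0.92). Trav14-1 was at under 1 CPM in both groups. These r were the highest among all tested genes, and the 12 points share mice, conditions and libraries.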

How the data were processed

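Stranded total RNA libraries of the 12 lines were sequenced on an Illumina instrument. The authors deposited whole-number counts per gene, not normalized or pooled, for 51826 genes. Their processing notes name FastQC 0.11.5, Trimmomatic 0.36, TopHat2 2.1.1, Bowtie2 2.3.2, featureCounts 1.5.3, R 3.6.1, edgeR 3.18.1 and GRCm38. Symbols and positions came from GENCODE M21, which held 51633 identifiers. The members and lists were chosen with earlier results of these data known.

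Counts were analysed in R 4.3.3 with edgeR 4.0.16. Genes passing filterByExpr were TMM-normalized, fitted by quasi-likelihood and tested by glmTreat against 1.5-fold with Benjamini-Hochberg adjustment at 0.05. Interactions of mouse and condition and tests against no change used glmQLFTest. Ratios, with a prior count of 0.5, were compared by exact permutation over 924 labelings. Log2 CPM used a prior count of 2. Alternatives are given in the closing section, and DESeq2 1.42.0 was among them. The fits were tested on simulated data. Named genes were the 10 members, up to 4 called genes per list, 11 genes chosen regardless of their call (1 is not reported here) and 5 genes most like each of 2 patterns. Marker genes and the genes of the last section were named after their values were seen.

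Equal first digits of line names were taken to mean the same mouse, which the line names do not spell out. Deviations from group means of EV with BCR-ABL1 lines had correlations between 0.0853 and 0.240 within a mouse and between -0.203 and -0.0635 across mice, so that mouse served as replicate block. The study describes biological triplicates from independent experiments, without saying which lines belong to which experiment. Whether lines of a mouse are separate cultures from the start is not clear from the labels, so that p-values measure the spread between these lines. Counts of 2 lines of a mouse and group differed by a chi-square of at least 9.96 per gene, so that each line was counted as a sample of its own.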

Additional observations from a re-analysis of the deposited data

Results flagged for a closer look

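The interaction of mouse and condition was looked at for the 10 members and the 16 pathway genes named by the rule given above. In edgeR's test, the change with BCR-ABL1 differed between the mice for 11 of these. Over all genes 16.9% passed (36.0% without EV line 2C). Other genes of the text, such as Vpreb1 and Igll1, which also passed, are outside this count. Socs1, Ifngr2 and Raet1e were named because they were called between the groups. Among the members, the interaction, as log2 change in mouse 2 minus that in mouse 1, was -0.75 for H2-K1, -0.60 for B2m, -1.39 for Tap2, -1.005 for Psmb8, -0.70 for Psmb9 and -0.70 for Psmb10. Among the other genes it was -0.56 for Irf1, -2.84 for H2-Q7, -2.36 for Socs1, -0.65 for Ifngr2 and -5.77 for Raet1e, the last from very low counts. Adjusted p lay between 5.73e-05 (H2-Q7) and 0.0325 (Raet1e).

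By Dixon's criterion a line stood apart from the other 5 of its group in 6 of 58 groups examined, where chance gives about 1 in 20. These were EV line 2C for Psmb5 (119 CPM), Psme1 (152 CPM), Psme2 (182 CPM) and Rfx5 (36.9 CPM), EV line 2B for H2-Q10 (15.4 CPM) and EV line 2A for Raet1e (0.428 CPM). No member was among them.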

How the results depend on the processing

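Of 230 values of the members' log2 fold changes under the alternatives, 211 kept direction and side of the threshold, 9 passed in addition and 10 changed sign, none of the last called. Genes called higher and lower (901 and 976) became 3389 and 3897 when tested against no change, 3776 and 4092 when mouse as replicate block was added to that test, an alternative chosen after seeing the data, 2512 and 1877 in mouse 1 alone and, for lower, 408 in mouse 2 alone. Members called higher became 1, 1 and 2 in the first 3 of these, and members called lower 2 and 2 in the first 2. Among the genes of the pathway lists, the 3 called higher became 36, 37, 16 and 1, and the 3 called lower became 14 and 16 in the tests against no change, 0 without gene filter, 0 in DESeq2, 1 with the line number as replicate block and 0 in mouse 2 alone. With mouse as replicate block and the 1.5-fold test, 0 members were called, and 1126 genes were higher and 1080 lower. The paired test left the closest member, Psmb8, at an adjusted p of 0.0778. Leaving out each line in turn gave 807 to 1353 higher and 802 to 1434 lower genes, 0 to 1 members higher, 0 members lower, 1 to 11 and 0 to 5 list genes, and 5 to 10 members that differed between mice, with both the 1353 and the 10 without EV line 2C.

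In mouse 1 alone the sign changed for B2m (0.075), Psmb9 (0.30), Nlrc5 (0.0037), H2-T23 (0.35) and H2-Q7 (1.67), and in mouse 2 alone for Tap2 (-0.49), Tapbp (-0.18) and Psmb10 (-0.23). H2-Q7 also turned with mouse (0.24, with and without the test against no change) or line number (0.28) as replicate block. With a line left out in turn, H2-Q7 ranged from -0.42 to 0.22 and H2-T23 from -0.44 to 0.0066, with the highest value of each without EV line 2B, and Tapbp from -0.017 to 0.076, negative in 4 of 12 fits. The cause was not tested. The differences of log2 subunit ratios moved to 0.97 and 0.15 (Psmb8 to Psmb5) and to -0.042 and -0.56 (Psmb10 to Psmb7) in mouse 1 and mouse 2 alone, and ranged from 0.49 to 0.70, from -0.48 to -0.36 (Psmb9 to Psmb6) and from -0.34 to -0.22 with a line left out. RLE size factors and a filter that asked for a CPM of 1 or more in 6 or more lines moved no count by over 1.5 times. At these depths counting error is small beside the spread between lines, and 2 mice limit what can be said of mice in general.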

Other observations

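Some genes outside the members differed more between lines or mice in EV than in BCR-ABL1 lines, and were picked for this after their values were seen. Cd1d1, which encodes the lipid-presenting CD1d, had 1.86 to 2.37 CPM in EV lines of mouse 1, 20.6 and 23.2 CPM in EV lines 2A and 2B and 0.595 CPM in EV line 2C, below all lines of mouse 1, whereas BCR-ABL1 lines had 9.25 to 10.9 CPM. Its interaction did not pass (-2.70, edgeR, adjusted p = 0.135). Ifnar2, a chain of the interferon-alpha receptor, had 9.85 to 10.4 CPM in mouse 1 and 23.8 to 30.8 CPM in mouse 2 among EV lines and, with BCR-ABL1, 35.3 to 38.1 CPM in mouse 1 and lower levels, from 29.8 CPM, in mouse 2, with an interaction of -1.71 (edgeR, adjusted p = 1.14e-05). Ulbp1, an NKG2D ligand, went the other way, with 69.1 to 80.7 CPM in mouse 1 and 20.2 to 42.0 CPM in mouse 2 among EV lines, beside 74.8 to 98.3 CPM in BCR-ABL1 lines, and an interaction of 1.51 (edgeR, adjusted p = 0.00579).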
